A study of Caenorhabditis elegans with 10 samples.

Results

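The mitochondrial genome mRNAs described here are 10 protein-coding genes of the *Caenorhabditis elegans* mitochondrial chromosome: *nduo-1* to *nduo-6*, *ctb-1*, *ctc-1*, *ctc-2* and *ctc-3*. They were taken by name from both deposited tables of transcript values, summed per gene, and were followed in every library. That chromosome carries 36 annotated genes, of which 12 are protein-coding, 2 are ribosomal RNA genes and 22 are tRNA genes. The tables hold 46739 genes at the L4 larval stage and 15355 genes at the L2 stage. All 10 genes were in both tables and passed the filter used for testing, a mean normalized count of at least 10.

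The study asked what mutations of *sftb-1*, the worm ortholog of the splicing factor gene *SF3B1*, do to the transcriptome. RNA of whole worms was sequenced in 10 libraries, n = 2 per group. At L4 (41 h of growth), 2 homozygous K718E lines from separate edits, *cer3* and *cer7*, were set beside a wild-type sibling line from the outcross of each, and these libraries hold polyadenylated RNA. At L2 (23 h), wild-type N2 larvae, larvae of the triple missense line *sftb-1(cer39)* and homozygous larvae of the deletion allele *sftb-1(cer6)* were compared. The *cer39* allele carries Q552P, R643C and K718E together, and the study describes its *sftb-1* missense mutations as viable when homozygous. The L2 libraries hold total RNA depleted of ribosomal RNA. The *cer6* homozygotes come from heterozygous mothers and were picked by a particle sorter as the non-fluorescent progeny of a balanced strain, which leaves a small admixture of other genotypes. The wild-type L2 larvae went through the same sorting window. The *cer39* larvae were not sorted, so genotype and sorting cannot be told apart in any comparison that sets *cer39* beside a sorted group. The study's methods call the L2 replicates biological and those of *cer39* independently collected, without saying more of how cultures were kept apart, so p-values measure the spread between libraries, part of which may be technical.

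The worm mitochondrial genome is a compact circle with no introns, and all of its genes lie on the same strand. Its mRNAs are made by a dedicated RNA polymerase inside the organelle as long precursors that are cut at the tRNAs lying between them, and the pieces receive short poly(A) tails. The nuclear spliceosome does not act on them. Their proteins are core subunits of the respiratory chain: the *nduo* genes encode subunits of NADH dehydrogenase (complex I), *ctb-1* encodes cytochrome b of complex III, and the *ctc* genes encode the core subunits of cytochrome c oxidase (complex IV). Most other subunits of these complexes are encoded in the nucleus.

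The libraries held 56996610 to 66563408 reads at L4 and 45313448 to 76420128 reads at L2. A single gene of the 10 had between 3944 and 240003 reads in an L4 library and between 267 and 490394 reads in an L2 library. Counting error was thus small for genes with many reads. For *nduo-2* at L2, with 407 and 328 reads in wild type, it was not small beside the gap between replicates (387 and 363 normalized counts). As a check of the labels, *sftb-1* itself had normalized counts of 6152 and 7222 in wild-type L2 libraries and of 3229 and 3580 in *cer6* libraries (log2 fold change −0.97, SE 0.129, limma adjusted p = 0.00592). The reads counted cover the whole gene, including parts outside the deletion. In the missense lines *sftb-1* changed by 0.02 (K718E, adjusted p = 0.937) and 0.07 (*cer39*, adjusted p = 0.736) on the log2 scale, which does not check those labels. In whole worms, fewer cells of a type and less RNA per cell cannot be told apart.

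As a share of all reads, the 10 mRNAs together made up between 0.811% and 1.96% of a library. The share was 1.09% and 1.11% in the wild-type siblings at L4 and 0.953% and 0.918% in K718E. At L2 it was 1.13% and 0.811% in wild type, with 1.42% and 1.96% in *cer39* and 1.32% and 0.945% in *cer6*. Both K718E libraries were below both of their wild-type siblings, both *cer39* libraries were above both wild-type L2 libraries, and the *cer6* and wild-type libraries overlapped. No p is given for these sums. The reads on rRNA genes differ between libraries too, since 16.7% to 18.2% of the wild-type L2 reads, 22.2% and 24.3% of the *cer39* reads and 19.8% and 20.3% of the *cer6* reads fell on nuclear rRNA genes. With rRNA genes left out of the total, the share was 2.01% and 2.79% in *cer39* against 1.49% and 1.02% in wild type and 1.80% and 1.24% in *cer6*.

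The levels of the 10 mRNAs were far from equal, although they come from the same chromosome. Per kilobase of gene length, *ctc-1* (WBGene00010964, MtDNA positions 7827 to 9428 of WBcel235), the catalytic core subunit of cytochrome c oxidase, was the highest in every library of both stages. Its level ran from 116238 to 153341 normalized counts per kilobase at L4 and from 103312 to 273580 at L2. *nduo-2* (WBGene00010961, positions 3389 to 4269), a membrane subunit of complex I, was the lowest in every library, at 4510 to 5417 per kilobase at L4 and 351 to 801 at L2. In wild-type worms the highest and lowest differed 28.5-fold at L4 and 296-fold at L2.

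At L4 the order of levels per kilobase was the same in all 4 libraries: *ctc-1*, *ctc-3*, *ctb-1*, *ctc-2*, *nduo-1*, *nduo-5*, *nduo-4*, *nduo-6*, *nduo-3* and *nduo-2*. Within each group the values of neighbours in this order did not overlap between libraries, except *nduo-6* and *nduo-3* in 1 of the 2 groups. At L2 the order held less tightly. The trio *ctc-2*, *ctc-3* and *ctb-1* exchanged places 2 to 4 between libraries, *nduo-5* and *nduo-4* exchanged places 6 and 7, and *nduo-6* and *nduo-3* exchanged places 8 and 9. Neighbours within these sets overlapped between the libraries of all 3 L2 groups. Within a library, however, *ctc-3* was above *ctb-1* in both *cer6* libraries (133533 against 95957 and 89675 against 68353 normalized counts per kilobase) and below it in both *cer39* libraries (106045 against 143861 and 152902 against 178921). The steps from *ctc-1* to the trio, from the trio to *nduo-1*, from *nduo-1* to the pair below it, from *nduo-4* to *nduo-6*, and from *nduo-3* to *nduo-2* held in all 6 libraries.

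**Figure D1:**
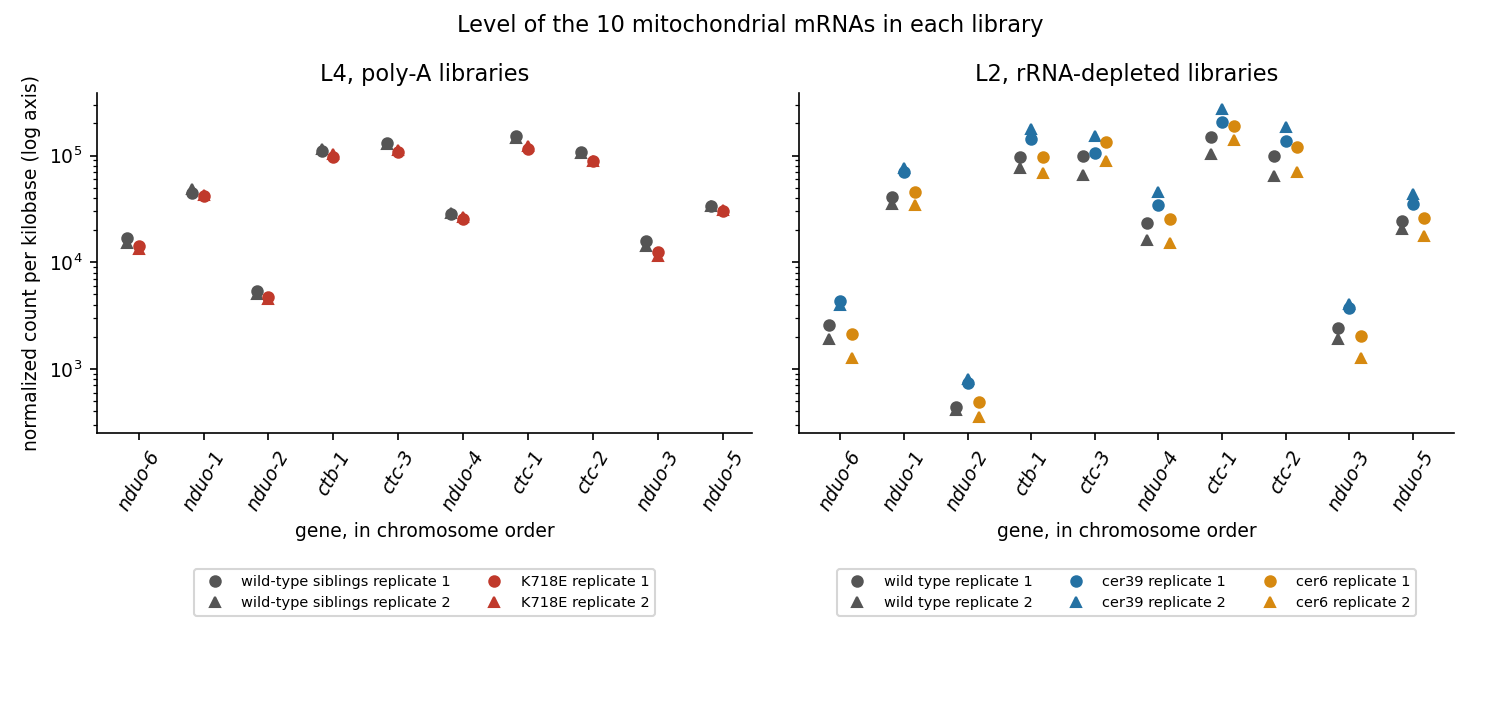
Normalized count per kilobase of gene length (log axis) of the 10 mRNAs in chromosome order, with 1 point per library (circles replicate 1, triangles replicate 2), at L4 on the left and L2 on the right. The tables of the 2 stages were normalized separately. *ctc-1* is the highest and *nduo-2* the lowest at both stages, and *nduo-2*, *nduo-3* and *nduo-6* lie further below the other genes at L2.

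The genes with the lowest levels lay much further below the rest in the L2 libraries than in the L4 libraries. Relative to *ctc-1* per kilobase in the same library, *nduo-2* stood at 3.48% to 4.08% over the 4 L4 libraries and at 0.253% to 0.399% over the 6 L2 libraries. *nduo-6* (WBGene00010957, positions 113 to 549), a small membrane subunit of complex I, stood at 10.3% to 12.14% at L4 and at 0.905% to 2.12% at L2. *nduo-3* (WBGene00010966, positions 11356 to 11691), another small complex I subunit, stood at 9.34% to 10.7% at L4 and at 0.922% to 1.86% at L2. The ranges of these genes do not touch between the stages.

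The other members moved less. *nduo-1* stood at 28.8% to 35.8% of *ctc-1* at L4 and 23.7% to 33.97% at L2, and these ranges overlap. *ctb-1* stood at 72.3% to 83.9% at L4 and 49.3% to 74.1% at L2. *ctc-3* stood at 85.0% to 93.6% and 51.5% to 70.2%, and *nduo-5* at 21.95% to 26.0% and 12.8% to 19.8%. The 2 stages were prepared by different methods and normalized apart, so stage and library type cannot be told apart and no test was run across them.

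In *cer39* larvae all 10 mitochondrial mRNAs lay above wild type, by 1.58-fold to 2.08-fold. For every gene both *cer39* libraries were above both wild-type libraries, 10 of 10, where 32.6% of all 15011 genes tested lay above and 29.4% lay below in the same way. A single gene, *nduo-1*, passed the test with Benjamini-Hochberg adjustment over all genes in limma, against a background of 4.12% of genes called higher. An unadjusted p under 0.05 was reached by 9 of 10, against 15.4% of all genes on the higher side and 13.8% on the lower. The median log2 fold change of the 10 was 0.90, beside 0.01 over all genes tested.

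*nduo-1* (WBGene00010959, positions 1763 to 2635), a core membrane subunit of complex I, had normalized counts of 35961 and 30623 in wild type and of 61093 and 66484 in *cer39*. Both *cer39* libraries were clear of the wild-type pair, and the log2 fold change was 0.94 (SE 0.184, 95% interval 0.48 to 1.40, adjusted p = 0.0445 from limma). Count models on the recovered reads gave adjusted p = 0.0388 (edgeR) and 0.00014 (DESeq2). The call was lost in limma when any 1 of the 6 L2 libraries was left out, with log2 fold changes of 0.83 to 1.06 and adjusted p of 0.0571 to 0.257. Without either *cer39* library that fit called 0 of all genes, so the loss there says nothing about *nduo-1*.

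Among the other complex I genes, *nduo-4* (positions 6506 to 7808), a large membrane subunit, had the highest estimate. Its normalized counts were 30059 and 20921 in wild type and 45195 and 59915 in *cer39*, so the groups did not overlap and the log2 fold change was 1.05 (SE 0.318, adjusted p = 0.104). The low-level *nduo-2* had 387 and 363 in wild type against 644 and 706 in *cer39*, and differed by 0.84 on the log2 scale (SE 0.193, adjusted p = 0.0604 in limma and 0.0489 in edgeR). *nduo-3*, *nduo-5* and *nduo-6* had log2 fold changes of 0.84, 0.81 and 0.91 (adjusted p = 0.0959, 0.0986 and 0.108).

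*ctb-1* (WBGene00000829, positions 4504 to 5621), cytochrome b, had 108049 and 85636 normalized counts in wild type and 160837 and 200033 in *cer39* (log2 fold change 0.90, SE 0.252, adjusted p = 0.09). The wild-type and *cer39* libraries were well apart, but the gene missed the threshold. For *ctc-1* the counts were 238942 and 165506 in wild type against 330050.0 and 438275 in *cer39* (log2 fold change 0.94, SE 0.312, adjusted p = 0.124). *ctc-2* (positions 9649 to 10348), the copper-binding subunit that receives electrons from cytochrome c, had 69399 and 44585 against 96822 and 130066 (log2 fold change 1.01, SE 0.354, adjusted p = 0.135).

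*ctc-3* (WBGene00010962, positions 5678 to 6449), the third core subunit of complex IV, came closest to wild type. Its counts were 76633 and 50227 in wild type and 81867 and 118041 in *cer39*, so the lower *cer39* library lay just above the higher wild-type library. Its log2 fold change was 0.66 (SE 0.327, 95% interval −0.15 to 1.48, adjusted p = 0.242), the only one of the 10 with an interval that reached 0. DESeq2 on the recovered reads called the other 9 genes higher and not *ctc-3* (adjusted p = 0.189), whereas edgeR called *nduo-1* and *nduo-2* only. Of all genes DESeq2 called 8.69% higher and edgeR 4.74%.

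**Figure D2:**
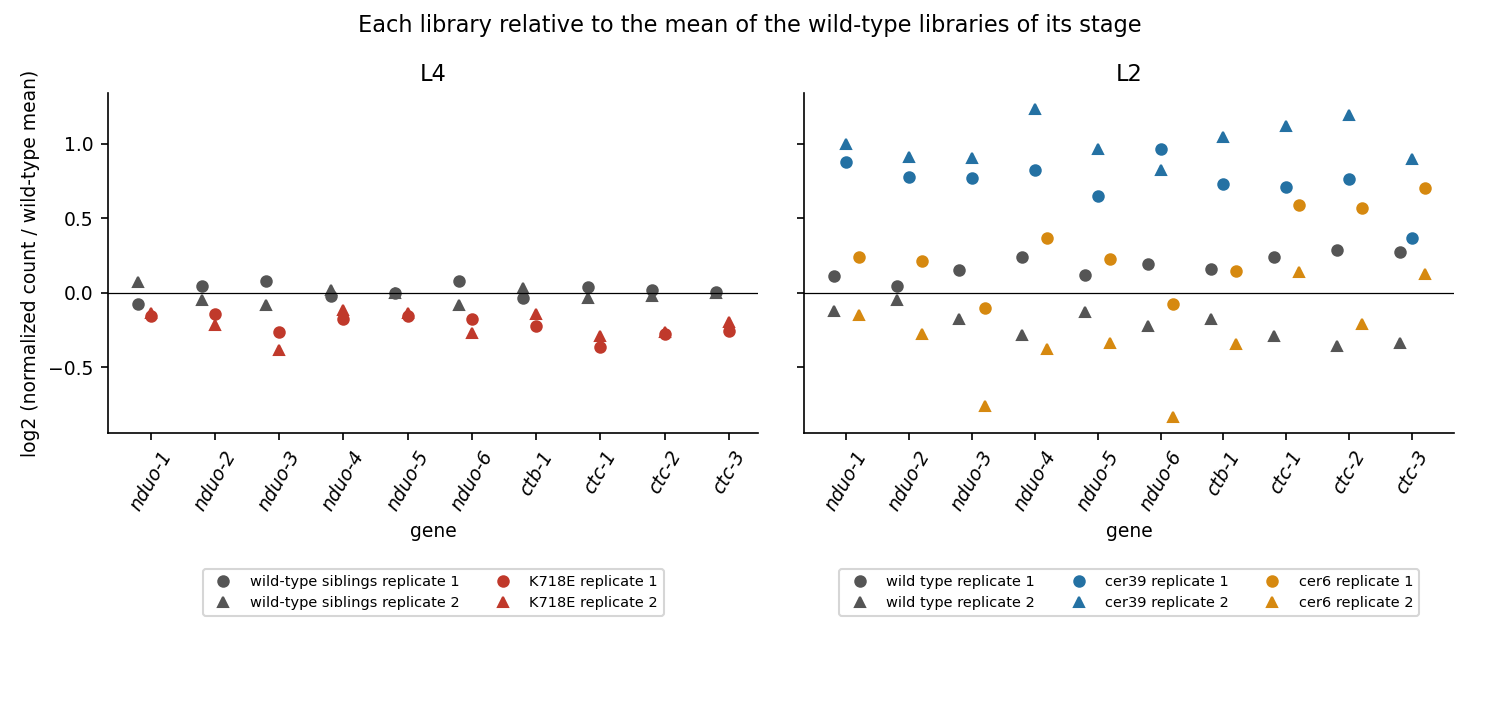
Log2 of each library's normalized count over the mean of the wild-type libraries of its stage, for the 10 mRNAs, with 1 point per library (circles replicate 1, triangles replicate 2). The K718E points (red) lie below the wild-type points at L4, the *cer39* points (blue) lie above them at L2, and the *cer6* points (orange) lie around them.

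In *cer6* larvae the 10 mRNAs did not depart from wild type as a set: 5 estimates were above 0 and 5 below, with a median of −0.01 on the log2 scale beside −0.01 over all genes. None passed the limma test, where 13.8% of genes were called lower and 13.8% higher, and none had an unadjusted p under 0.05 (21.1% of all genes were lower and 19.8% higher at that mark). DESeq2 and edgeR on the recovered reads also called 0 of the 10. The *cer6* and wild-type values overlapped for all 10 genes, where 31.1% of all genes lay above wild type in both libraries and 32.7% below.

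The lowest estimates were those of the short complex I genes. *nduo-6* had 1119 and 840 normalized counts in wild type and 930 and 549 in *cer6* (log2 fold change −0.44, SE 0.280, 95% interval −1.14 to 0.26, adjusted p = 0.299). *nduo-3* had 809 and 645 against 677 and 430 (log2 fold change −0.42, SE 0.245, 95% interval −1.03 to 0.19, adjusted p = 0.258). In both genes replicate 1 of *cer6* lay between the wild-type values and replicate 2 lay below them.

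At the other end stood complex IV. *ctc-3* had 76633 and 50227 in wild type and 103087 and 69229 in *cer6* (log2 fold change 0.45, SE 0.327, 95% interval −0.37 to 1.26, adjusted p = 0.362). *ctc-1* had 304669 and 222237 in *cer6* (log2 fold change 0.39, SE 0.312, adjusted p = 0.406). *nduo-1*, the one gene called in *cer39*, had 39322 and 30050.0 in *cer6*, a log2 fold change of 0.05 with a 95% interval of −0.41 to 0.51. These intervals leave room for changes of either sign.

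Set directly against each other, the L2 mutants differed. All 10 mRNAs were lower in *cer6* than in *cer39*, and 5 passed the limma test (*nduo-1*, *nduo-2*, *nduo-3*, *nduo-6* and *ctb-1*), against a background of 10.5% of genes called lower and 9.11% higher. For 9 of the 10 both *cer6* libraries lay below both *cer39* libraries, with *ctc-3* as the exception, where 33.6% of all genes lay below and 34.2% above. An unadjusted p under 0.05 was reached by 7 of 10, against 18.4% of all genes on the lower side and 17.3% on the higher. The median log2 fold change was −0.88, beside 0.02 over all genes. The comparisons of *cer39* and *cer6* with wild type share the same wild-type libraries, whereas this one does not use them except for the estimate of spread.

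The largest difference was in *nduo-6*, with 1908 and 1733 normalized counts in *cer39* against 930 and 549 in *cer6*. The groups did not overlap, and the log2 fold change was −1.35 (SE 0.280, adjusted p = 0.0286). *nduo-3* had 1242 and 1358 against 677 and 430 (log2 fold change −1.27, SE 0.245, adjusted p = 0.0239). *nduo-1* and *nduo-2* differed by −0.89 (SE 0.184, adjusted p = 0.0279) and −0.88 (SE 0.193, adjusted p = 0.033).

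*ctb-1* differed by −0.99 (SE 0.252, adjusted p = 0.0476), close to the threshold. The estimates for *nduo-4* (−1.04, adjusted p = 0.0754) and *nduo-5* (−0.86, adjusted p = 0.0583) were of like size and missed it. The complex IV genes had the smallest differences, at −0.80 for *ctc-2*, −0.55 for *ctc-1* and −0.22 for *ctc-3* (adjusted p = 0.171, 0.268 and 0.674). The number of genes called fell from 5 to 0 when either *cer39* library or *cer6* replicate 2 was left out, and to 3 without *cer6* replicate 1. The share of all genes called lower fell in the same fits from 10.5% to 0 of 15011 genes without *cer39* replicate 1, 0.593% without *cer39* replicate 2, 0.993% without *cer6* replicate 2 and 2.17% without *cer6* replicate 1. With libraries scaled to all reads instead, the median of all genes moved to −0.10 (*cer39* against wild type) and 0.12 (*cer6* against *cer39*), and 4 of the 10 genes passed in the latter.

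**Figure D3:**
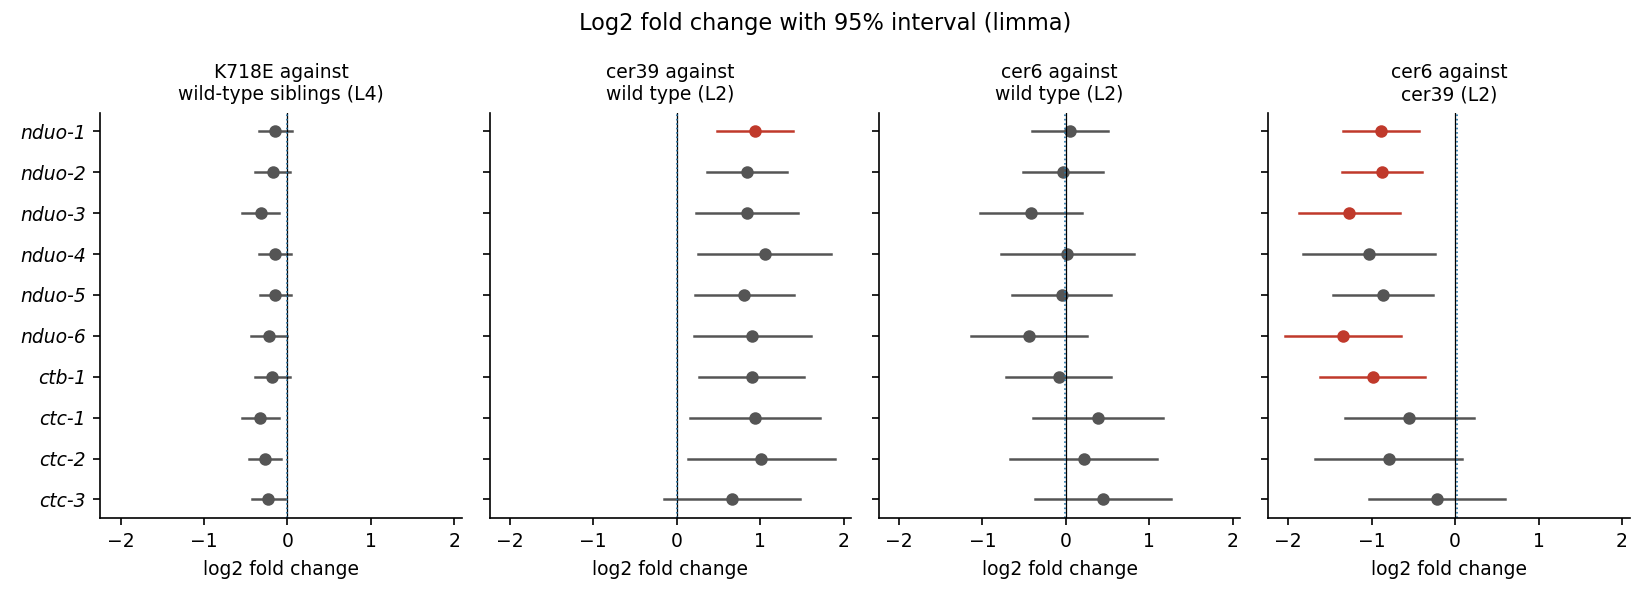
Log2 fold change (point) and 95% interval (line) of the 10 mRNAs from limma in the 4 comparisons, with genes past an adjusted p of 0.05 in red and the median of all genes tested as a dotted line. All points lie left of 0 in K718E and right of 0 in *cer39*, 5 lie on each side in *cer6* against wild type, and 5 of 10 are red in *cer6* against *cer39*.

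The make-up of the pool of mitochondrial mRNAs also differed in *cer6* and, for some genes, in K718E. This was looked at after the values were known and is given as a description, and shares of a whole are not independent of each other. Complex IV mRNAs took 68.8% and 68.7% of the reads of the 10 genes in *cer6*, against 64.2% and 60.3% in wild type and 60.9% and 63.2% in *cer39*. *ctb-1* took 15.002% and 15.4% in *cer6*, 18.02% and 19.8% in wild type and 19.3% and 18.4% in *cer39*. In both measures the *cer6* libraries were close to each other and clear of the other 4.

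Of the 10 single shares, 6 lay below wild type in both *cer6* libraries (*nduo-2* to *nduo-6* and *ctb-1*), 2 lay above (*ctc-1* and *ctc-3*), and 2 overlapped (*nduo-1* and *ctc-2*). As normalized counts, 32.7% of all genes lay below and 31.1% above in that comparison. No such rate was worked out for shares of a pool. *nduo-3* took 0.0947% and 0.0866% of the pool in *cer6*, against 0.135% and 0.149% in wild type and 0.149% and 0.125% in *cer39*. *nduo-6* took 0.130% and 0.111% in *cer6*, 0.187% and 0.195% in wild type and 0.229% and 0.160% in *cer39*. In *cer39* against wild type 7 of the 10 shares overlapped. In K718E against its siblings 5 shares lay above (*nduo-1*, *nduo-4*, *nduo-5*, *ctc-3* and *ctb-1*), 1 lay below (*ctc-1*) and 4 overlapped. As normalized counts, 25.4% of all genes lay above and 28.9% below in K718E.

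The neighbours *ctb-1* and *ctc-3*, which are parted by a single tRNA gene, also show the shift in *cer6*. The ratio of *ctc-3* to *ctb-1* normalized counts was 0.961 and 0.906 in *cer6*, 0.709 and 0.587 in wild type, and 0.509 and 0.590 in *cer39*. The *cer6* pair was above the other 4 L2 libraries, and the wild-type and *cer39* pairs overlapped. At L4 the ratio was 0.811 and 0.770 in the wild-type siblings against 0.773 and 0.761 in K718E, which overlap.

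**Figure D4:**
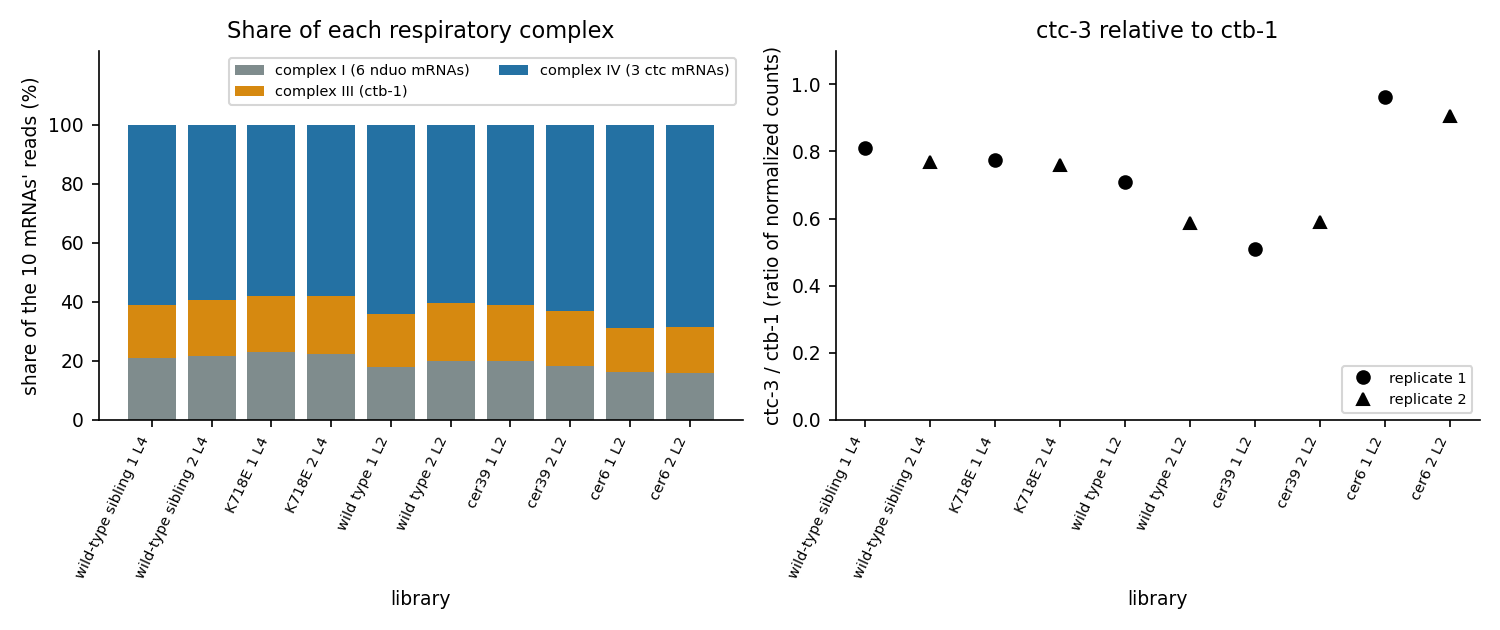
Left, share (%) of the reads of the 10 mRNAs that fell on complex I, III and IV genes in each of the 10 libraries. Right, ratio of *ctc-3* to *ctb-1* normalized counts in each library. The *cer6* libraries have the largest complex IV shares, 68.8% and 68.7%, and the highest ratios, 0.961 and 0.906.

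Replicates of a group differed more at L2 than at L4, and most of the 10 genes moved together between them. For the 10 genes, the value in replicate 2 over that in replicate 1 had a median of 0.985 in the wild-type siblings against 1.02 in K718E. At L2 it was 0.771 in wild type, with 1.25 in *cer39* and 0.674 in *cer6*. Across the 6 L2 libraries the 45 pairs of genes had Pearson correlations of 0.53 to 1.00 with a median of 0.93, where the points share 3 genotypes and the library scaling. The lowest was between *nduo-6* and *ctc-3* and the highest between *ctb-1* and *nduo-5*.

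Between L2 replicates, markers of muscle and intestine, in lists of 8 genes each, all detected in every library, moved opposite to the mitochondrial mRNAs. The summed muscle markers made up 0.385% and 0.633% of the normalized counts in wild type, with 0.470% and 0.359% in *cer39* and 0.365% and 0.595% in *cer6*. The intestine markers made up 0.324% and 0.497%, 0.391% and 0.296%, and 0.343% and 0.468% in the same order. In each of the 3 groups the library with more mitochondrial mRNA had less of both. The germline and pharynx sums also ran opposite to the mitochondrial mRNAs between replicates in all 3 groups. As shares, the neuron markers ran the same way, with 0.0632% and 0.0594% for the wild-type libraries, 0.0603% and 0.0611% for *cer39* and 0.0772% and 0.0717% for *cer6*. The gap in *cer39* is small. There the summed neuron counts themselves, 35466 and 33894, ran opposite to the mitochondrial mRNAs, unlike in wild type and *cer6*. The part of these tissues in the mitochondrial values was not tested. Between groups, 0 of 8 muscle markers passed in any L2 comparison. Germline markers made up 0.0230% and 0.0346% in wild type, with 0.0143% and 0.0120% in *cer39* and 0.0186% and 0.0231% in *cer6*. Both *cer39* libraries were below both wild-type libraries, and all 8 genes had negative estimates in *cer39* (median −0.86 on the log2 scale) with 0 of 8 passing, while 3 of 8 passed as lower in *cer6*. The part of the germline in the *cer39* values was not tested. The 6 pharynx markers made up 0.0498% and 0.111% in wild type, with 0.0650% and 0.0493% in *cer39* and 0.0318% and 0.0420% in *cer6*, so the *cer6* pair was the lowest, with 0 of 6 passing against wild type and 2 of 6 against *cer39*. Of the intestine markers 1 of 8 passed in each L2 comparison, higher in *cer39* and lower in *cer6*, and of the neuron markers 1 of 8 was higher in *cer6* against each of the other groups. Of the germline markers 1 of 8 was higher in *cer6* than in *cer39*. Of all genes, 4.12% were called higher and 3.04% lower in *cer39* against wild type. The shares were 13.8% and 13.8% in *cer6* against wild type, and 9.11% and 10.5% in *cer6* against *cer39*.

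At L4 the direction was the opposite of that in *cer39*: all 10 mRNAs lay below the wild-type siblings' level in K718E, by small amounts. Both K718E libraries lay below both wild-type libraries for 10 of 10 genes, where 28.9% of all 15840 genes lay below and 25.4% lay above. None passed the limma test, against a background of 0.00631% of genes called lower and 0.391% higher. An unadjusted p under 0.05 was reached by 5, against 10.4% of genes on the lower side and 9.94% on the higher. DESeq2 called 2 of the 10, against 2.61% of all genes called lower, and edgeR called 0. Log2 fold changes ran from −0.33 to −0.14 with a median of −0.20, beside −0.01 over all genes. A fit with the replicate number as a block also called 0 of the 10, while it called 463 genes higher and 162 lower in place of 62 and 1.

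The lowest estimates were those of *ctc-1*, *nduo-3* and *ctc-2*, followed by *ctc-3* (−0.23) and *nduo-6* (−0.22). *ctc-1* had 245652 and 233515 normalized counts in the wild-type siblings against 186213 and 196133 in K718E (log2 fold change −0.33, SE 0.0966, 95% interval −0.55 to −0.10, adjusted p = 0.148 from limma). *ctc-2* had 75897 and 73962 against 61776 and 62312 (log2 fold change −0.27, SE 0.0841, adjusted p = 0.153). Both genes had libraries well apart and missed the threshold in limma and edgeR (adjusted p = 0.162 and 0.167), whereas DESeq2 called both (adjusted p = 0.00604 and 0.0175).

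*nduo-3* had 5292 and 4751 normalized counts in the wild-type siblings against 4190 and 3844 in K718E. Its log2 fold change was −0.32 (SE 0.0971, adjusted p = 0.149), with the groups apart and the threshold missed. *nduo-1*, *nduo-4* and *nduo-5* had the smallest estimates, −0.14, −0.15 and −0.15, with intervals that reached 0. For *nduo-5* the counts were 53255 and 53228 against 47777 and 48459, so the wild-type libraries were nearly equal and the gap to K718E was small but clear of them.

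Tissue markers moved with genotype at L4 as well. Of the 8 muscle markers, 4 passed as higher in K718E, where 0.391% of all genes were called higher. The sum of the 8 made up 0.734% and 0.708% of the normalized counts in the wild-type siblings against 1.40% and 1.17% in K718E. Of the 6 pharynx markers, 2 passed as higher, with sums of 0.0339% and 0.0333% against 0.0750% and 0.0652%. No marker of the intestine, neuron, germline or sperm lists passed. Every marker of these lists was detected in every L4 library except 1 to 3 of 35 sperm genes. The part of tissue make-up in the mitochondrial values was not tested.

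The other genes of the mitochondrial chromosome gave a partly different picture. *atp-6*, the subunit a of ATP synthase, which overlaps the end of *nduo-1*, had 33314 and 31001 normalized counts in the wild-type siblings against 31927 and 31297 in K718E. These groups overlap, and the log2 fold change was −0.02 (adjusted p = 0.894). At L2 it had 28003 and 13238 in wild type, with 34048 and 62674 in *cer39* and 32226 and 16568 in *cer6*, the widest spread between replicates of any protein-coding gene of this chromosome, with log2 fold changes of 1.26 (SE 0.518, adjusted p = 0.178) and 0.26 (adjusted p = 0.745) against wild type.

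*ndfl-4*, a very small complex I subunit, had 80.0 and 63.1 normalized counts in wild type at L2, 172.5 and 165 in *cer39* and 92.6 and 55.6 in *cer6*. It was higher in *cer39* by 1.24 on the log2 scale without passing (SE 0.295, adjusted p = 0.0653), and it passed as lower in *cer6* than in *cer39* (log2 fold change −1.22, SE 0.295, adjusted p = 0.041). At L4 it had 1677 and 1635 in the wild-type siblings against 1453 and 1361 in K718E (log2 fold change −0.24, adjusted p = 0.239). Like the 10 mRNAs, it was above wild type in both *cer39* libraries, overlapped wild type in *cer6* and was below the siblings in both K718E libraries.

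MTCE.7 and MTCE.33 are the ribosomal RNA genes of this genome, and the depletion or selection of RNA bears on them directly. They took 0.00576% to 0.00736% of the reads in the poly-A libraries at L4. At L2 they took 5.83% and 3.81% in wild type, with 5.15% and 7.70% in *cer39* and 6.33% and 3.92% in *cer6*. Per read on the 10 mRNAs there were 5.15 and 4.70 such reads in wild type, with 3.63 and 3.93 in *cer39* and 4.801 and 4.15 in *cer6*, so the *cer39* pair was the lowest and the other pairs overlapped. Neither gene passed in any comparison (adjusted p of at least 0.171). The 22 tRNA genes were listed at 0 in every L4 library and were not analysed at L2.

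The nuclear genes that work with these mRNAs fell broadly in *cer6* against wild type. Lists of 173 such genes tested at L2 and 174 at L4 covered the nuclear subunits of complexes I to IV and ATP synthase, mitochondrial ribosomal proteins, factors for the upkeep and expression of mitochondrial DNA, and the mitochondrial unfolded protein response. In *cer6* against wild type 136 of the 173 fell (78.6%, against 13.8% of all genes) and 2 rose, while none of the 10 mitochondrial mRNAs passed. In that comparison 120 fell with scaling to nuclear reads other than rRNA (median −0.57, 12.2% of all genes lower). Scaled to all reads, 140 fell (median −0.63, 14.3% of all genes lower). In *cer39* against wild type 8 fell and 1 rose (background 3.04% and 4.12%), with a median of −0.11 beside the 0.90 of the mitochondrial mRNAs. With libraries scaled to all reads 15 fell (median −0.21), and with scaling to nuclear reads other than rRNA 6 fell (median −0.05). In K718E none of the 174 passed, as for the mitochondrial mRNAs. Only 0.00631% of all genes were called lower there and 0.391% higher, so this count says little about the partners. The median of the 174, −0.11, lay on the same side as the −0.20 of the mitochondrial mRNAs. Estimates were below 0 for 68 of 70 mitochondrial ribosomal and 27 of 31 complex I genes. They were above 0 for 3 of 4 complex II genes and 6 of 11 genes of the unfolded protein response.

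In complex I the change was seen gene by gene. Of its 31 nuclear subunits on the list, 27 fell in *cer6*, with a median log2 fold change of −0.55. *nduf-6*, an accessory subunit, had 5044 and 4613 normalized counts in wild type and 2436 and 2304.5 in *cer6* (log2 fold change −1.03, SE 0.102, adjusted p = 0.00298). *nuo-2* and T20H4.5, both core subunits of the peripheral arm, fell by 0.75 and 0.73 (adjusted p = 0.0055 and 0.00672). In *cer39* only *nduf-2.2*, another core subunit, passed (−0.69, adjusted p = 0.0352).

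The same held for the other complexes in *cer6*. Of 12 nuclear subunits of complex III and cytochrome c, 10 fell, among them *cyc-1*, cytochrome c1, with 20254 and 21055 in wild type against 12528 and 13014 in *cer6* (log2 fold change −0.69, adjusted p = 0.00916), and T27E9.2 and *ucr-11* (−0.90 and −0.67, adjusted p = 0.00568 and 0.0138). Of 7 nuclear subunits of complex IV, 3 fell: F29C4.2, Y71H2AM.5 and *cco-2* (−0.73, −0.57 and −0.55, adjusted p = 0.00672, 0.0157 and 0.0172). Of 15 ATP synthase genes, 11 fell, led by *atp-5* (−0.80, adjusted p = 0.00608), and of 4 genes of complex II, which has no mitochondrially encoded subunit, 3 fell, led by *sdhb-1* (−0.77, adjusted p = 0.0106). In *cer39* against wild type *ucr-2.3* (−0.96, adjusted p = 0.0398) and *atp-4* (−0.52, adjusted p = 0.0497) were the genes of these complexes that passed. The call on *atp-4* ended under TMM scaling, where 0 of the 15 ATP synthase genes passed.

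The machinery that replicates, transcribes and translates the mitochondrial genome is of most direct concern to these mRNAs. Of 70 mitochondrial ribosomal protein genes, 59 fell in *cer6* against wild type, none passed in *cer39* or K718E, and their medians were −0.65, −0.04 and −0.19. The median in *cer39* turned to 0.00 and 0.01 under scaling by TMM and to nuclear reads other than rRNA. Of 24 factors for mitochondrial DNA and its expression, 16 fell and 1 rose in *cer6*. The translation elongation factor gene *tufm-1* had 20392 and 19547 in wild type against 9284 and 9638 in *cer6* (log2 fold change −1.08, SE 0.102, adjusted p = 0.00278), and *tsfm-1*, also an elongation factor, fell by 1.07 (adjusted p = 0.00321).

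A single gene of this list rose, and it did so in both L2 mutants. *hmg-5*, which encodes a mitochondrial DNA-packaging protein of the TFAM type, had 771 and 698 normalized counts in wild type, with 1485 and 1652 in *cer39* and 1752 and 1531 in *cer6*. The log2 fold changes against the shared wild-type libraries were 1.09 in *cer39* (SE 0.129, adjusted p = 0.0191) and 1.16 in *cer6* (SE 0.129, adjusted p = 0.00381). The difference between the mutants was 0.06 (adjusted p = 0.757). Of the list 4 genes fell in *cer39*, among them *gfm-1*, a translation elongation factor (−0.70, adjusted p = 0.0299). Another of the 4, *mtrr-1* (−1.92, adjusted p = 0.032), encodes methionine synthase reductase of the methionine cycle and does not belong to this machinery. Without it 3 of 23 fell in *cer39* and 15 of 23 in *cer6*. *hsp-60*, a chaperone of the mitochondrial matrix, had 41826 and 46720 in wild type, 25354 and 23697 in *cer39* (log2 fold change −0.85, adjusted p = 0.0289) and 14345 and 16429 in *cer6* (−1.53, adjusted p = 0.00256). The other partner gene that rose in *cer6*, picked out after its values were seen, was *ubl-5*, a ubiquitin-like factor of the mitochondrial unfolded protein response, with 513 and 428 in wild type, with 768 and 800 in *cer39* and 1294 and 1005 in *cer6* (log2 fold change 1.28, adjusted p = 0.006).

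**Figure D5:**
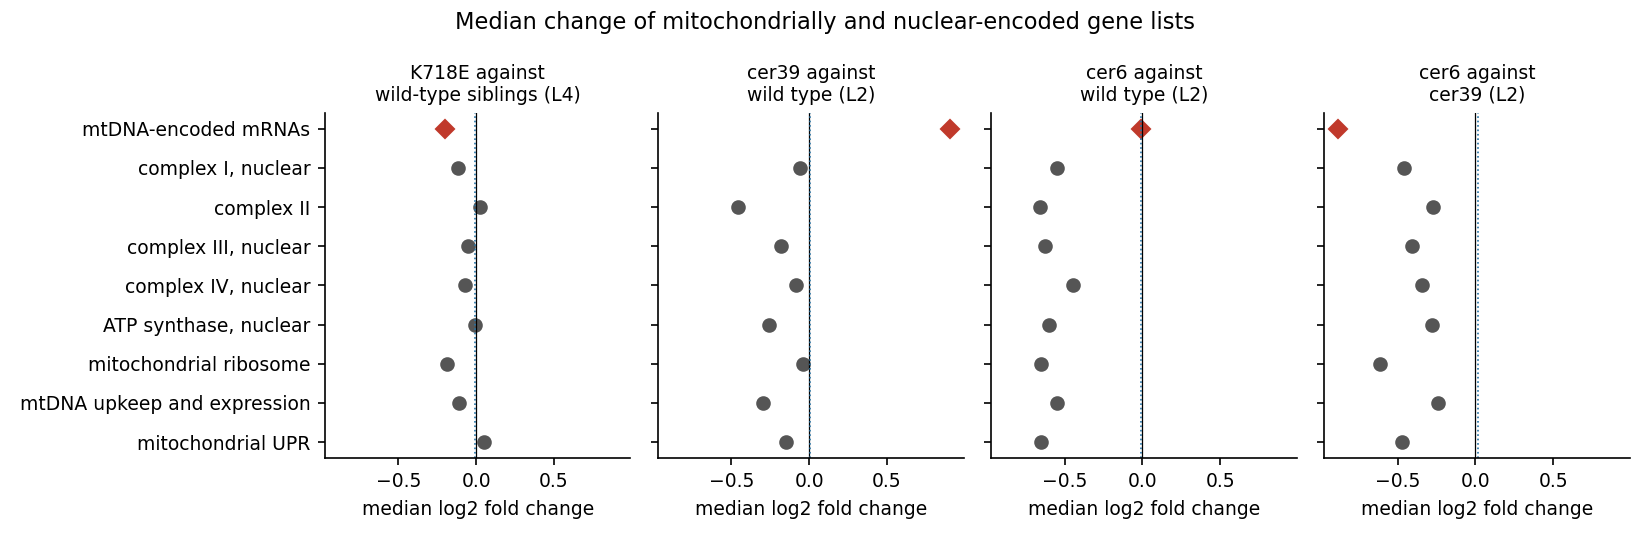
Median log2 fold change of the 10 mitochondrially encoded mRNAs (red diamond) and of 8 lists of nuclear genes (grey circles) in the 4 comparisons, with the median of all genes tested as a dotted line. In *cer6* against wild type the mitochondrial mRNAs sit at −0.01 and every nuclear list lies between −0.66 and −0.45. In *cer39* against wild type they sit at 0.90 and every nuclear list lies below 0, although the mitochondrial ribosome list moves to 0.00 and 0.01 under scaling by TMM and to nuclear reads other than rRNA.

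Between the 2 L2 mutants both sides moved in the same direction. In *cer6* against *cer39*, 108 of 173 nuclear partner genes were lower (62.4%, against 10.5% of all genes) and none was higher, with a median of −0.51. With libraries scaled to all reads 81 were lower (median −0.41), where 8.51% of all genes were called lower. *nduf-6*, *mrpl-39* and *tsfm-1* were among those with the smallest adjusted p, with log2 fold changes of −0.79, −0.85 and −0.89 (adjusted p = 0.00948, 0.00845 and 0.00876). *mtss-1*, the single-stranded DNA-binding protein of mitochondria, differed by −0.92 (adjusted p = 0.0109) and *timm-23*, an import channel subunit, by −0.84 (adjusted p = 0.00947).

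Outside the mitochondrial chromosome, the 5 genes most like the summed mRNAs over the 6 L2 libraries, among 11690 genes whose mean reached 100, were *cah-2*, *glb-12*, *aps-2*, ZK512.4 and *unc-86*. Their Pearson correlations on the log2 scale were 0.986 to 0.996, with 6 points that share the library scaling and the genotypes. *cah-2* had 363 and 301 normalized counts in wild type, with 460 and 511 in *cer39* and 410 and 324 in *cer6*. None of the 5 passed in any L2 comparison (adjusted p of at least 0.121).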

How the data were processed

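RNA-seq libraries of whole worms were prepared per the labels from poly-A RNA (L4) or rRNA-depleted total RNA (L2). The authors aligned reads with STAR, estimated transcript abundance with RSEM on WBcel235 and normalized with DESeq2. For these tools the version is not given in the sources used here. Deposited values are a signal, normalized counts per transcript, and not raw counts. How the molecular identifiers of the L2 adapters were used is likewise not given. Columns of the authors' own comparisons (fold changes, p-values and splicing events) were not used.

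Transcripts were summed per gene. For L2, 1 transcript with shifted cells was left out. limma 3.58.1 (trend) in R 4.3.3 was run on log2(value + 1) over genes with a mean of 10 or more, two-sided, with Benjamini-Hochberg adjustment over all genes and a threshold of 0.05, in one fit for L4 and one for the 3 L2 groups. A log2 fold change is on this scale, which understates changes of low genes. Intervals are 95%. Dividing by the smallest step of each library returned whole reads for 100% of values, within 0.1 of a whole number, and these reads gave library totals and the alternatives with edgeR 4.0.16 (quasi-likelihood) and DESeq2 1.42.0. The other alternatives were a pseudocount of 0.5 or 5, a minimum mean of 50 or none, other scalings, a replicate block, the 4 compared libraries alone, and leaving out each library. The fits were tested on simulated data. At L4 each mutant line has a wild-type sibling line from its outcross. The labels give only a replicate number, and the block paired the libraries by that number. The differences between replicates correlated at −0.10 between the groups. Replicates differed beyond sampling noise, with a chi-square of 36.3 to 184 per gene.

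The members and all lists were chosen with earlier results of these data known. Named were the 10 genes, the other protein-coding and rRNA genes of the mitochondrial chromosome, up to 3 genes with the smallest adjusted p per nuclear list and comparison, and the 5 genes, with a mean of at least 100, most correlated with the summed mRNAs. Whether the counting used strand is not stated, and 8 of the 10 genes share end bases with a neighbour, *nduo-2* sharing 28 with the tRNA gene MTCE.15, *ctc-1* sharing 7 with MTCE.27, and *nduo-1*, *nduo-3*, *nduo-5*, *nduo-6*, *ctb-1* and *ctc-2* sharing 1 or 2.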

Additional observations from a re-analysis of the deposited data

Results flagged for a closer look

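The changes of 5 mitochondrial mRNAs against wild type differed between the L2 mutants by a test of the difference itself, the contrast of *cer6* against *cer39* in limma. The difference, *cer6* minus *cer39* on the log2 scale, was −1.35 for *nduo-6*, −1.27 for *nduo-3*, −0.99 for *ctb-1*, −0.89 for *nduo-1* and −0.88 for *nduo-2*, with adjusted p of 0.0286, 0.0239, 0.0476, 0.0279 and 0.033. In each of them both *cer6* libraries lay below both *cer39* libraries. Of all genes tested, 10.5% were called lower in this contrast and 33.6% lay below in the same way. How far the calls depend on single libraries is given below. The *cer6* larvae were sorted and the *cer39* larvae were not, so allele and sorting cannot be told apart.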

How the results depend on the processing

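All 10 estimates stayed below 0 in K718E and above 0 in *cer39* under every alternative run, and 9 of 10, all but *ctc-3*, stayed below 0 in *cer6* against *cer39*. The number of the 10 genes called higher in *cer39* (1) became 0 with the replicate block, 0 with only the 4 compared libraries, 2 with TMM, 2 with edgeR, 9 with DESeq2, and 0 with any 1 library left out. The number lower in *cer6* against *cer39* (5) ranged from 0 to 4 with 1 library left out, was 4 with the block, and *ctb-1* was the call lost (adjusted p = 0.0731). Leaving out *cer39* replicate 1 left 0 calls among all genes in that comparison. In K718E the number lower (0) became 2 with DESeq2 and ranged from 0 to 1 with 1 library left out, where the gene called without either K718E library was *nduo-3*, in fits that called 555 genes higher and 524 lower without replicate 1, and 2488 and 2685 without replicate 2. Those fits set 1 K718E library against the siblings, assume that it varies as they do, and call so many more genes than the 62 and 1 of all libraries that passing there says nothing about *nduo-3*. At L2 no source states whether the same replicate number marks a shared culture, and the replicate differences correlated at −0.17 to 0.12 between groups. A pairing of the L4 libraries with the replicate numbers crossed, chosen after seeing the data, called 0 of the 10. Over all genes it called 174 higher and 43 lower. The block and the crossed block changed no other call on the 10 genes.

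In *cer6* against wild type, where nothing was called, signs turned for 6 genes when 1 library was left out. The log2 fold changes then ranged from −0.14 to 0.24 for *nduo-1*, −0.28 to 0.22 for *nduo-2*, −0.35 to 0.39 for *nduo-4*, −0.33 to 0.23 for *nduo-5*, −0.17 to 0.60 for *ctc-2* and −0.33 to 0.16 for *ctb-1*, with turned signs without replicate 1 or 2 of wild type or *cer6*. *nduo-2* also turned with TMM (0.00736), nuclear reads other than rRNA (0.0213) and edgeR (0.0270), and *nduo-5* with edgeR (0.00565). *ctc-3* in *cer6* against *cer39* ranged from −0.51 to 0.0685 and turned without *cer39* replicate 2 (0.05) or *cer6* replicate 2.

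With rRNA genes left out of the total, the mean share of reads on the 10 mRNAs moved from 1.098% to 1.13% (wild-type siblings), 0.935% to 0.970% (K718E), 0.972% to 1.26% (wild type L2), 1.69% to 2.40% (*cer39*) and 1.13% to 1.52% (*cer6*). Ranked by count and not per kilobase, highest and lowest in wild type differed 51.9-fold at L4 and 539-fold at L2. Nuclear partners higher in *cer39* numbered 2 with edgeR. Without *mtrr-1*, chosen after seeing the data, 7 of 172 partners fell in *cer39* and 135 of 172 in *cer6* against wild type. Over all genes, calls in *cer39* were 618 higher and 456 lower, against 506 and 828 scaled to all reads and 1304 and 1268 with DESeq2. In *cer6* against *cer39* they were 1367 and 1579, against 1808 and 1278 scaled to all reads. In K718E they were 62 and 1, against 467 and 414 with DESeq2. The cause of these shifts was not tested. With 2 libraries a group, intervals of members with wide replicate spread leave room for changes in either direction.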
